A study of Homo sapiens with 6 samples.

Results

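Among 16230 Argonaute crosslink sites in the annotated table, 180 lay in 59 of the 4361 named genes. These 59 code for protein phosphatases, their regulatory subunits or kinases of the MAP kinase cascade, apart from MAPKAP1 and the pseudogene PPP4R1L. Phosphorylation and protein were not measured. The members were all sites whose gene symbol begins with DUSP, PTPN (without PTPN14), PTPR, MAPK, MAP2K, MAP3K or MAP4K, or with PPP followed by a digit, so they were chosen by name and not by level. Another 2 gene names in the table join a phosphatase gene with an overlapping gene (PPP3R1 and PPP2CA), and the rule left those joined names out. MAPKAP1 (SIN1, a subunit of the mTORC2 kinase complex) entered through its symbol alone and is no MAP kinase.

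PAR-CLIP maps where a protein sits on RNA: cells take up 4-thiouridine, ultraviolet light links it to the bound protein, and reverse transcription then leaves a mark at the linked base. The cells were HK2, an established line from human kidney proximal tubule, labelled wild type (WT). All groups shared a protocol in which cells were serum starved for 24 h, fed 4-thiouridine (100 μM) over the final 20 h before light of 365 nm, and in which complexes of 100 to 150 kDa and cDNA of 80 to 150 nt were selected. The 2 control libraries came from cells without the cytokine and the 2 TGF-beta1 libraries from cells given TGFb1 at 20 ng/mL for 24 h, all pulled down with an antibody to Argonaute. The 2 IgG pull-down libraries were not analysed here, so no site below has a measured background from an unspecific pull-down. The labels do not say whether the 2 libraries of a group came from separate cultures, and the p-values measure only the spread between them.

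MAP kinases are the last kinases of 3-step relays: a MAP3K activates a MAP2K, which activates a MAPK, and MAP4K enzymes act above the MAP3Ks. Dual-specificity phosphatases (DUSP) switch MAP kinases off, the PTPN and PTPR families remove phosphate from tyrosine in the cytoplasm and at the cell surface, and the PPP family removes it from serine and threonine, with small catalytic subunits directed to their substrates by many regulatory subunits. Argonaute proteins carry microRNAs, which find target RNA mainly by pairing their seed, bases 2 to 8, and reduce the output of the target. TGF-beta1 signals chiefly through Smad proteins and also through the kinase TAK1 (MAP3K7).

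MicroRNAs whose matches at member sites are described below are shown first, from RefSeq on GRCh38.p14, with the seed in capitals. MiR-16-5p is shown beside them because its seed shares 6 bases with that of miR-103a-3p.
let-7a-5p: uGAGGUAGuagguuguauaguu
miR-103a-3p: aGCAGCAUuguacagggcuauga
miR-16-5p: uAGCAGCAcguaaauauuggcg
miR-92a-3p: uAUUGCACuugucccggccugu
miR-17-5p: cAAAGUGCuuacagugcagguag
miR-200b-3p: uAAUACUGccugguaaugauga
miR-22-3p: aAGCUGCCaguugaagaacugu
miR-155-5p: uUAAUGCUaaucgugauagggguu
miR-181a-5p: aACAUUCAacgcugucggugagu

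The member sites that carry the results below are shown next, as 25 nt of the transcript strand from the deposited table on hg38, 5′ to 3′, with the crosslinked T as base 13 and the authors' seed match in capitals. First come sites with the 6-nt complement of bases 2 to 7 of miR-103a-3p, in the order PTPN3 (chr9:109378713-109378737, minus strand, 3′ UTR), DUSP10 (chr1:221702378-221702402, minus strand, 3′ UTR), PPP4R2 (chr3:73065267-73065291, plus strand, intron) and PPP1CC (chr12:110730720-110730744, minus strand, CDS).
PTPN3: ctcctacatgtatTGCTGCtacttc
DUSP10: ggatggaaaggatTGCTGCtctcca
PPP4R2: acctgtatgtagtTGCTGCtgaatt
PPP1CC: aatactatgattTGCTGCgactttt

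Sites matched to let-7 lay in the 3′ UTR of MAP3K9 (chr14:70723903-70723927, minus strand), the CDS of MAP2K4 (chr17:12107808-12107832, plus strand) and the 3′ UTR of MAPK6 (chr15:52065474-52065498, plus strand) and MAP3K21 (chr1:233382759-233382783, plus strand), the last with a 6-nt match to bases 3 to 8.
MAP3K9: tcatcgtttatctCTACCTCcagtt
MAP2K4: atggaactcatgtCTACCTCgtttg
MAPK6: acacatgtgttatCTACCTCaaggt
MAP3K21: gaacacaatgtatCTACCTttgaac

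Matches to the miR-17 family stood in the 3′ UTR of MAP3K9 (chr14:70730248-70730272, minus strand), the CDS of MAPK8 (chr10:48420179-48420203, plus strand) and the 3′ UTR of MAP3K3 (chr17:63695216-63695240, plus strand).
MAP3K9: ttgcactgataatGCACTTTgaaga
MAPK8: gtaaaatctgattGCACTTTgaaga
MAP3K3: gtatgttgacgatGCACTTTtatga

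The remaining sequences are the top sites of DUSP5 (miR-25/92 family, chr10:110510492-110510516, plus strand), PPP1R15B (miR-22-3p, chr1:204406009-204406033, minus strand) and PPP1R18 (miR-200b, chr6:30676615-30676639, minus strand), each in a 3′ UTR, with the miR-25/92 site of DUSP10 (chr1:221701731-221701755, minus strand) and the miR-200b site of MAP3K1 (chr5:56895535-56895559, plus strand) for comparison.
DUSP5: acatttcatacctGTGCAATactga
DUSP10: tcactggcttcttGTGCAATaatat
PPP1R15B: aaaaacaaatcttGGCAGCTgtcct
PPP1R18: ctccactttttctCAGTATTacttt
MAP3K1: aacctcagctaatCAGTATTacttt

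In 15 of the 16 windows above the capitals begin at the base after the crosslinked T, and in PPP1CC they begin at the crosslinked T itself. Sites that share a seed match differed in the letters around it, with exceptions: the windows of MAP3K9 and MAPK8 shared a run of 13 letters, and those of PPP1R18 and MAP3K1 shared 13 as well.

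Libraries held 1714444 and 1926254 reads (controls) and 5293207 and 3415700 (TGF-beta1). Reads that carry a crosslink numbered 467, 636, 792 and 838 at the member sites, which was 1.26, 1.18, 1.06 and 1.16% of such reads at all listed sites. Levels below are these reads in RPM (scaled to the library's total reads), divided by TMM factors, which correct for differences in composition between libraries. Those factors were 1.06, 1.39, 0.666 and 1.03 over genes, so scaling shifts the first TGF-beta1 library up and the second control library down. The deeper TGF-beta1 libraries had a crosslink at 159 and 163 of the 180 member sites, against 125 and 140 in the controls. Of the 180, 12 member sites had none in either control and 1 had none in either TGF-beta1 library. Of the 16050 other sites, 1862 had none in either control and 192 had none in either TGF-beta1 library. The number of reads at a site reflects both how much of the transcript is present and how often Argonaute sits on each copy, and these cannot be told apart in these files. As to the cell type, none of 12 proximal tubule markers (LRP2 and AQP1 among them) carried a site, and of 6 epithelial markers only KRT18 did; a gene without a site may still be expressed. None of 4 leukocyte, 4 endothelial or 4 fibroblast markers carried one either.

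Argonaute crosslinks were unevenly spread over these transcripts. The 59 genes collected between 2 and 304 crosslinked reads over the 4 libraries, 2733 in all, and 26 genes had a single site. The 3 most crosslinked, PPP2CB, PPP1R15B and DUSP5, together held 28.5% of the reads. A member site had a median of 8 reads over the 4 libraries, against 7 at all other sites, and 78 member sites (43.3%) were crosslinked in every library, against 37.8% of the others. Only 22 genes and 19 sites passed the read filter of the fit over the whole table, so 37 genes and 161 sites are described by their values alone.

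The sites lay in 3′ UTRs and coding sequence. Of the 180, 82 (45.6%) were in a 3′ UTR, 57 (31.7%) in coding sequence (CDS), 39 (21.7%) in an intron, 1 in the 5′ UTR of MAPK6 and 1 in the pseudogene PPP4R1L. Coding sequence held 31.5 and 29.4% of the member reads in the controls and 32.7 and 29.5% in the TGF-beta1 libraries. At all other sites coding sequence held 17.5 and 16.4%, then 18.9 and 19.2%, so the member share was higher in each of the 4 libraries. These shares have unlike bases. Regions other than UTRs, coding sequence, introns and pseudogenes held 12.9 and 9.59%, then 13.3 and 10.8%, of the reads at the other sites. They held 0% of the member reads, and this lowers the coding share of the other sites alone. Part of the excess was PPP2CB, whose top coding site carried 218 reads: without that gene the member share was 24.9 and 23.4% in the controls and 24.1 and 25.8% with TGF-beta1, still above the other sites in each library. Intron sites were faint, with 34 of the 39 at 10 reads or fewer.

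A seed match by the authors' annotation stood within 15 nt of the crosslink at 121 member sites (67.2%), against 63.1% of the other sites. It was adjacent to the crosslinked base at 45 (25%), which carried 50.2% of the member reads, against 22.9% of the other sites with 44.8% of their reads. A full 7-nt adjacent match was present at 26 (14.4%), against 11.2%. Within coding sequence, 8 of 57 member sites had an adjacent 7-nt match and carried 46.3% of the coding reads, whereas among other genes 8.51% of coding sites had one, with 19.3% of the reads. Without PPP2CB, 6 of 52 coding sites had such a match and carried 27.1% of the coding reads. The base that follows an adjacent 7-nt match was A at 14 of the 26 member sites (53.8%) and at 53.4% of the 1803 others. These shares are descriptions, since sites of a gene share their transcript.

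**Figure D1:**
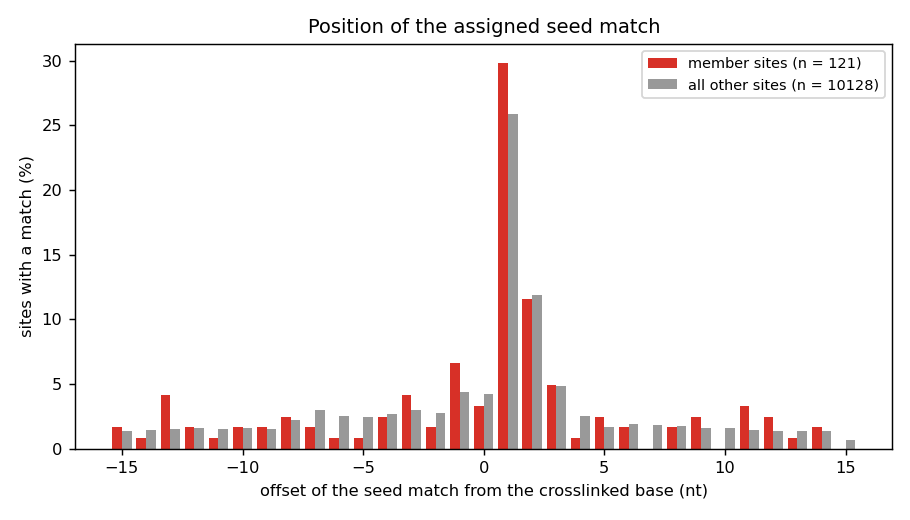
Position of the assigned seed match from the crosslinked base in nt (x axis; 0 means that the match begins at that base and positive values lie towards the 3′ end) as the percentage of sites with a match (y axis), for 121 member sites and 10128 other sites. Both peak at an offset of 1, with 29.8% of the member sites and 25.9% of the others.

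Counting adjacent matches alone, let-7 matched the most member genes, 6 in all: MAP2K4, MAP3K21, MAP3K9, MAPK6, PPP6R3 and PTPRK. Of these, 4 code for kinases of the MAP3K, MAP2K and MAPK families, the last of them MAPK6, an atypical MAP kinase. The miR-25/92 family had adjacent 7-nt matches in 4 genes, the phosphatases DUSP5 and DUSP10, the receptor phosphatase PTPRK and the kinase MAP2K4. The miR-17 family had them in 3 kinase genes, MAP3K3, MAP3K9 and MAPK8. MiR-200b matched MAP3K1 and PPP1R18, miR-22-3p matched PPP1R15B at 2 sites, and miR-155-5p matched PPP2CB at 2. Let-7 made up 5.79% of the matched member sites and 5.33% of those in the whole table, and the miR-17 family 4.13% against 3.92%.

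MiR-103a-3p was assigned to 10 member sites in 10 genes, the most of any seed, and these held 12.1% of the member reads. It made up 8.26% of the matched member sites and 7.33% of those in the whole table. In 5 of the 10 genes (DUSP10, DUSP14, PPP1R11, PPP4R2 and PTPN3) the match was adjacent, and each was a 6-nt match. In 4 of those 5, all but DUSP14, the letter after the capitals is T, which makes TGCTGCT, the complement of bases 2 to 8 of miR-16-5p. Among the other genes 307 of 338 such sites (90.8%) had this T. TGCTGCT, searched on the transcript strand only, occurred in the 31-nt windows of 7 member sites (3.89%) and of 3.26% of all other sites; a window can hold it together with a miR-103a-3p match, which it overlaps. No site in the table carried a label of miR-15a, miR-15b, miR-16, miR-195, miR-424 or miR-497 (5p arms). The letters do not say which microRNA was bound.

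Levels were compared between control and TGF-beta1 cells with limma on log2(scaled RPM + 1), fitted over all 1266 genes or 1059 sites that passed the read filter, two-sided, with Benjamini-Hochberg adjustment over all of them. A difference on this scale understates the change of faint genes. No member gene passed an adjusted p of 0.05 out of 22 tested, where 39 genes (3.08%) of the whole table did. At an unadjusted p under 0.05 there were 3 lower (PTPN3, MAP3K9 and MAP3K21; 13.6% of the 22, where 7.58% of all tested genes were lower) and 0 higher (6.24% of all). The filter asks for the same RPM, before TMM scaling, in at least 2 libraries, so it takes more reads in the deeper TGF-beta1 libraries. All 3 of these genes met it in both controls and not in both TGF-beta1 libraries. The PTPN3 site and the MAP3K9 let-7 site described below met it in the controls alone. The counts of lower and higher genes are thus not read as a result about the members. Of the 19 member sites tested, 1 passed, lower with TGF-beta1, where 76 sites (7.18%) of the whole table did. Differences were positive in 12 genes and negative in 10, with a median of 0.05 against 0.02 over all tested genes. In RPM without TMM factors they were positive in 4 and negative in 18, with medians of -0.41 and -0.45, so only the place of a gene among the others is read here. Both TGF-beta1 libraries lay below both controls in 5 of the 22 (22.7%; 23.1% of all tested genes) and above both in 3 (13.6%; 20.5% of all). For sites these counts were 6 of 19 below (all tested sites: 24.5%) and 1 above (all tested sites: 23.9%).

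**Figure D2:**
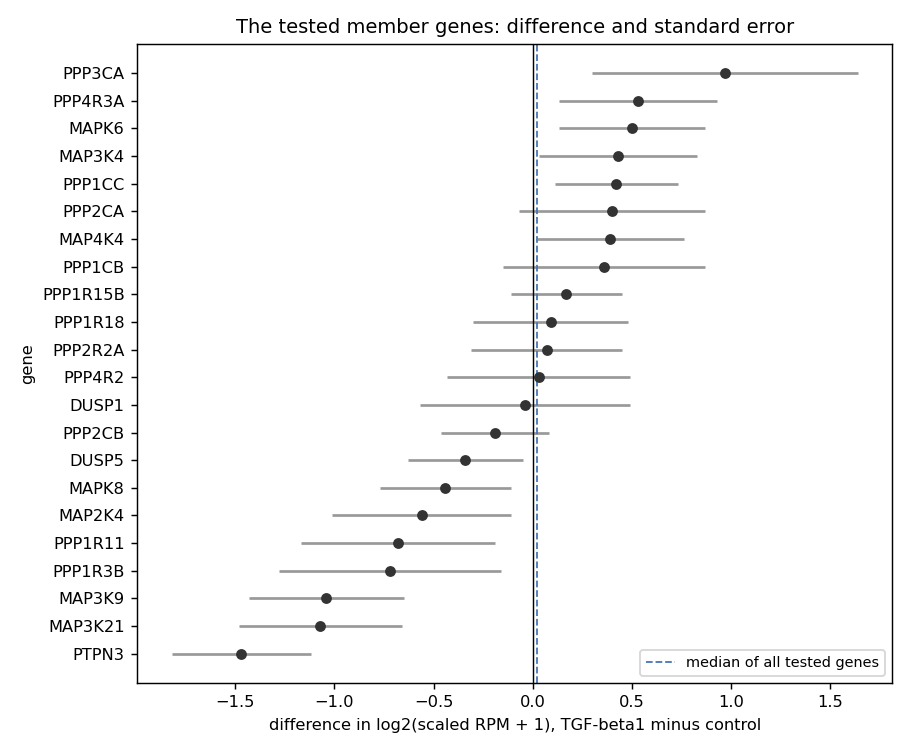
Difference in log2(scaled RPM + 1), TGF-beta1 minus control (x axis), for the 22 tested member genes (y axis); points are estimates from 2 libraries a group, bars are ± 1 standard error, and the dashed line is the median of all tested genes (0.02). PTPN3, MAP3K21 and MAP3K9 are the 3 genes below -1, and standard errors range from 0.27 to 0.67.

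The single call was in PTPN3, a cytoplasmic tyrosine phosphatase with FERM and PDZ domains. Its 3′ UTR site shown above had 20 and 34 reads in the controls and 11 in each TGF-beta1 library, which is 11.1 and 11.7 scaled RPM against 3.39 and 3.14. The groups did not overlap, and the difference was -1.54 ± 0.42 (SE; limma, adjusted p = 0.0243). The site passed the read filter through the controls alone, where it is high. This site held 91.6% of the gene's reads; the other site lay 28 nt away. Summed over both, PTPN3 stood at 11.6 and 13.1 scaled RPM in the controls and at 3.69 and 3.99 in the TGF-beta1 libraries, 3.22-fold lower by the means. The gene-level difference of -1.47 ± 0.35 just missed the threshold (limma, adjusted p = 0.052). EdgeR's quasi-likelihood test on the recovered reads, which calls 3.79% of all genes and 7.74% of all sites, put PTPN3 past it at both levels (adjusted p = 0.0408 for the gene and 0.0131 for the site), while DESeq2 did not (0.115 and 0.0528). The site's call was also lost when control replicate 2 (adjusted p = 0.0823), TGF-beta1 replicate 1 (0.134) or TGF-beta1 replicate 2 (0.235) was left out, without a change of direction.

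The rest of the PTPN group was faint. PTPN13, a large phosphatase that also carries FERM and PDZ domains, had 4, 6, 7 and 2 reads at a 3′ UTR site with a 6-nt match to miR-21-5p. Scaled, that site stood at 2.22 and 2.06 RPM in the controls and 2.15 and 0.571 with TGF-beta1. PTPN4, the closest relative of PTPN3, had 3 and 3 reads in the controls and 2 and 1 in the TGF-beta1 libraries. PTPN12 had 8 reads over the 4 libraries and PTPN20 had 4. The whole PTPN group summed to 16 and 17.6 scaled RPM in controls and 7.66 and 5.69 with TGF-beta1; without PTPN3 the sums were 4.42 and 4.50, then 3.97 and 1.71.

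Among the MAP3Ks, MAP3K9 and MAP3K21, both of the mixed-lineage kinase family, had the next lowest differences. MAP3K9 stood at 12.2 and 12 scaled RPM in the controls and at 3.69 and 7.69 with TGF-beta1. The groups did not overlap, but the difference of -1.04 ± 0.39 did not pass (limma, adjusted p = 0.237). All 4 of its sites were in the 3′ UTR, with adjacent matches to the miR-17 family, let-7 and miR-221-3p. The let-7 site had 10 and 9 reads in the controls and 1 and 3 in the deeper TGF-beta1 libraries, and by limma this difference of -1.73 ± 0.61 was not called (adjusted p = 0.0926). EdgeR's quasi-likelihood test gave an adjusted p of 0.0305 for that site. Covering reads, taken only at sites crosslinked in all 4 libraries, gave a limma difference of -0.81 (adjusted p = 0.434). With covering reads the gene's difference was -0.57 (limma, adjusted p = 0.461), and it was -0.55 without TGF-beta1 replicate 1 (0.998). The miR-17 site, with 8, 14, 9 and 13 reads, stood at 4.43 and 4.82 scaled RPM in the controls and 2.77 and 3.71 with TGF-beta1.

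MAP3K21 stood at 12.2 and 7.5 scaled RPM in controls and 3.12 and 5.12 with TGF-beta1, again without overlap (difference -1.07 ± 0.41; limma, adjusted p = 0.247). Its let-7 site had 9, 15, 8 and 12 reads, or 4.98 and 5.16 scaled RPM against 2.46 and 3.43, without overlap. Of the other MAP3Ks, MAP3K4, which acts above p38 and JNK, stood at 7.19 and 3.75 against 7.09 and 7.69, with overlapping groups. MAP3K1, at its single miR-200b site, had 6 and 7 reads in the controls and 2 and 1 in the TGF-beta1 libraries, too few for the fit. MAP3K7 (TAK1), the MAP3K known for its activation by TGF-beta, had 1, 10, 7 and 4 reads at 3 sites, with the control libraries on either side of the treated ones. The 9 MAP3K genes together summed to 41.5 and 34.1 scaled RPM in controls and 20.4 and 27 with TGF-beta1; without MAP3K9 and MAP3K21 the sums were 17.1 and 14.6, then 13.6 and 14.2.

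**Figure D3:**
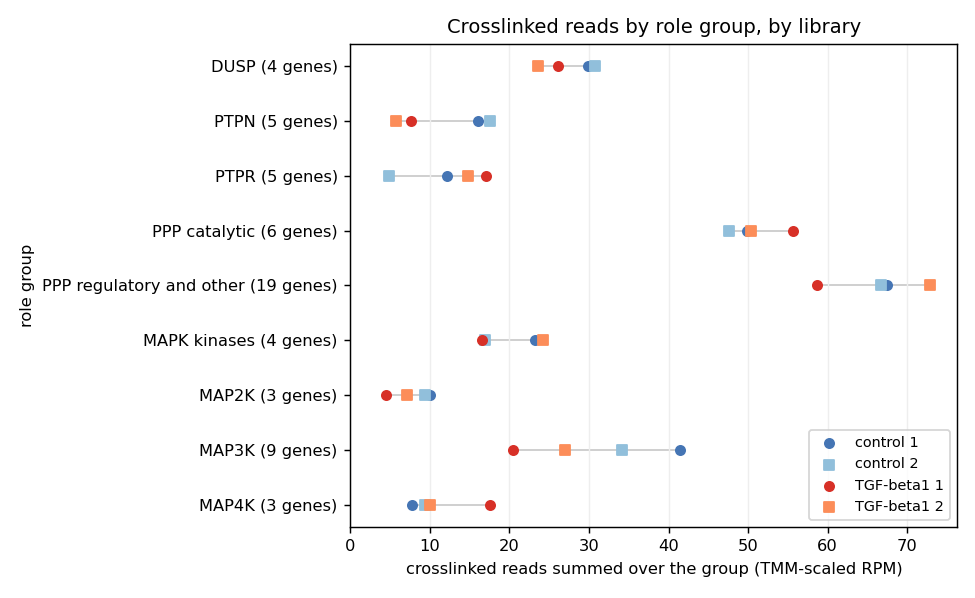
Crosslinked reads summed over the member genes of the 9 role groups with more than 1 gene (x axis, TMM-scaled RPM; y axis, group and number of genes), 1 point per library and a line from lowest to highest. PTPN, MAP3K, DUSP and MAP2K sums were lower in both TGF-beta1 libraries than in both controls, and PTPR, PPP catalytic and MAP4K sums were higher in both; the other 2 groups overlapped. In RPM without TMM factors the PTPR and MAP4K sums overlapped and the PPP catalytic sums were lower in both TGF-beta1 libraries. Group sums were not tested. Of all single genes tested, 23.1% lay lower in both TGF-beta1 libraries than in both controls and 20.5% lay higher in both.

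Below the MAP3Ks, the cascade was covered thinly. MAP2K4, a kinase that activates JNK and p38, stood at 9.40 and 5.25 scaled RPM in controls and 3.12 and 6.26 with TGF-beta1, with overlap. Its coding-sequence let-7 site held 87.5% of the reads, 15, 13, 10 and 18 in the 4 libraries. MAP2K7, the other kinase of JNK, had 1, 10, 3 and 3 reads at a coding site near a miR-21-5p match, and MAP2K1 (MEK1) had 3 reads in all. The MAP2K group summed to 9.95 and 9.37 scaled RPM in controls and 4.54 and 7.12 with TGF-beta1. MAPK6 (ERK3, an atypical MAP kinase) and MAPK8 (JNK1) had the most reads of the MAPK kinases. MAPK6 stood at 9.95 and 6.75 in controls and 8.79 and 16.2 with TGF-beta1, a difference of 0.50 ± 0.37 (limma, adjusted p = 0.593) with the first treated library inside the range of the controls. Its let-7 site in the 3′ UTR had 4 and 2 reads in the controls and 10 and 20 with TGF-beta1, or 2.22 and 0.688 scaled RPM against 3.08 and 5.71. MAPK8 stood at 11.1 and 9.75 against 7.66 and 7.12, without overlap (-0.44 ± 0.33; limma, adjusted p = 0.583). Its coding-sequence miR-17 site had 10, 11, 7 and 8 reads, or 5.54 and 3.78 scaled RPM against 2.15 and 2.28, and 2 further sites in the 3′ UTR matched miR-29a-3p and miR-30. MAPK12 (p38 gamma) had 5 reads in all.

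Above them, the MAP4K group was carried by MAP4K4, a kinase that feeds the JNK route. It stood at 6.64 and 6.37 scaled RPM in controls and 11.3 and 6.83 with TGF-beta1, so the groups did not overlap but the second treated library lay close to the controls (difference 0.39 ± 0.37; limma, adjusted p = 0.707; -0.10 without TMM factors). Its top site, in the 3′ UTR, had no seed match. MAP4K3 had 2, 6, 16 and 8 reads and MAP4K5 had 0, 2, 6 and 3. MAPKAP1 had 1, 3, 2 and 10.

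**Figure D4:**
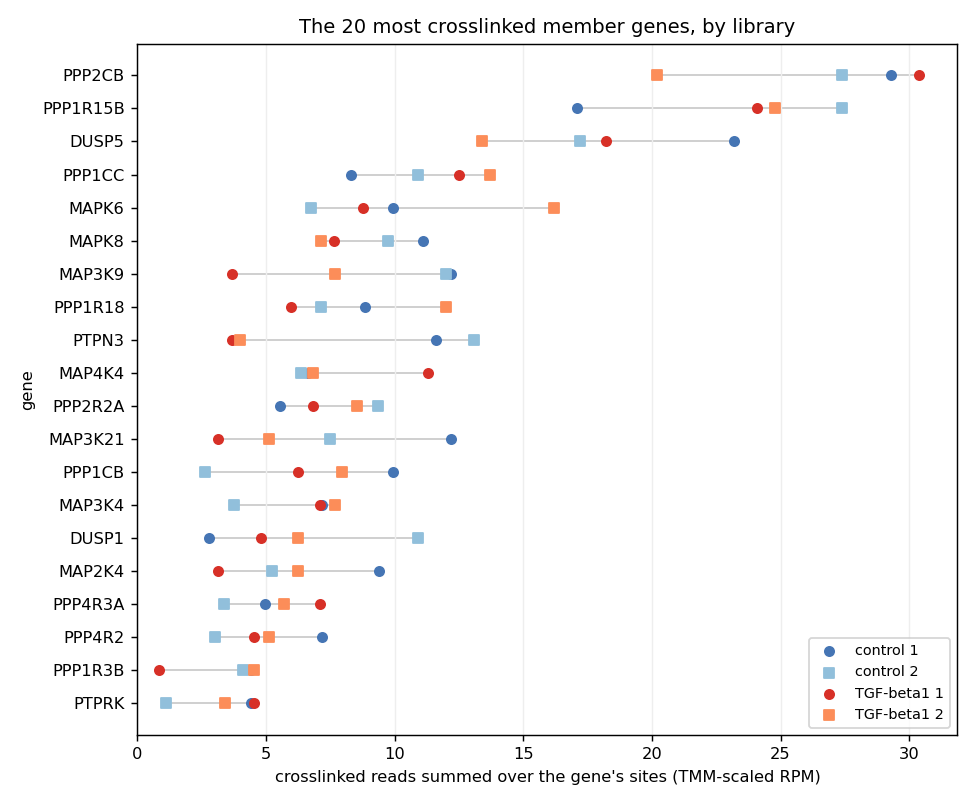
Crosslinked reads summed over each gene's sites (x axis, TMM-scaled RPM) for the 20 most crosslinked member genes (y axis), 1 point per library and a line from lowest to highest. PTPN3 and MAP3K9 have both controls to the right of both TGF-beta1 libraries, whereas the groups overlap for PPP2CB, PPP1R15B and DUSP5.

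Of the dual-specificity phosphatases, DUSP5, a nuclear MAP kinase phosphatase, was crosslinked most. It stood at 23.2 and 17.2 scaled RPM in the controls and 18.2 and 13.4 with TGF-beta1, with overlap (-0.34 ± 0.29; limma, adjusted p = 0.643), and ranked 200 among all genes by its mean level. All 8 DUSP5 sites lay in the 3′ UTR within 955 nt of genome, and the miR-25/92 site shown above held 54.3% of its reads (26, 24, 38 and 20). A site 29 nt further on, near a 7-nt match to miR-103a-3p, had 0 and 1 reads in the controls and 7 and 11 with TGF-beta1, too few for the fit. DUSP1, an early-response phosphatase of p38 and JNK, stood at 2.77 and 10.9 in controls and 4.82 and 6.26 with TGF-beta1, so its controls spread further apart than the groups. None of its 4 sites had an adjacent match. DUSP10, a phosphatase of p38 and JNK, had 6, 6, 8 and 13 reads, and DUSP14 had 1, 1, 3 and 1. The DUSP sums, 29.9 and 30.7 scaled RPM against 26.1 and 23.6, did not overlap.

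No receptor phosphatase passed the read filter. PTPRK, PTPRF and PTPRE had 39, 37 and 35 reads over the 4 libraries, more than the tested gene PPP1R11 (28). Most of theirs lay in the deeper TGF-beta1 libraries, where 1 read is worth less RPM. PTPRK stood at 4.42 and 1.12 scaled RPM in controls and 4.54 and 3.42 with TGF-beta1, with 5 of its 7 sites in introns. PTPRF (LAR), at a single intron site, stood at 2.77 and 0.375 against 6.24 and 2.56. PTPRE stood at 2.77 and 1.5 against 3.12 and 4.27 and did not overlap, and its coding site with a 7-nt match to miR-196 had 7 reads in all. PTPRJ had 4, 4, 8 and 11 reads and PTPRS 0, 1, 3 and 5. Together the 5 genes summed to 12.2 and 4.87 in controls and 17 and 14.8 with TGF-beta1, and in RPM without TMM factors to 12.8 and 6.75 against 11.3 and 15.2, which overlap. PTPRC (CD45), the receptor phosphatase of leukocytes, carried no site.

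The serine and threonine phosphatases held the largest share of reads, 21.6% in catalytic and 27.9% in regulatory subunits. PPP2CB, a catalytic subunit of PP2A, was the most crosslinked member and ranked 116 among all genes. It stood at 29.3 and 27.4 scaled RPM in controls and 30.4 and 20.2 with TGF-beta1, with overlap (-0.19 ± 0.27; limma, adjusted p = 0.815). Its coding-sequence site for miR-155-5p, at position 30799556 of chromosome 8 (minus strand), held 71.7% of its reads. That site stood at 22.2 and 17.5 scaled RPM in controls and at the extremes, 26.5 and 11.7, in the TGF-beta1 libraries. A second miR-155-5p match lay in its 3′ UTR, with 6, 8, 10 and 14 reads. PPP2CA, the other PP2A catalytic subunit, had 4, 8, 10 and 17 reads and no adjacent match.

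PPP1CC, a catalytic subunit of PP1, stood at 8.30 and 10.9 scaled RPM in controls and 12.5 and 13.7 with TGF-beta1; the groups did not overlap, and the difference of 0.42 ± 0.31 did not pass (limma, adjusted p = 0.583) and was -0.08 without TMM factors. Of its 10 sites 8 were in coding sequence. PPP1CB, another PP1 subunit, stood at 9.95 and 2.62 against 6.24 and 7.97, between its own controls. PPP3CA, the catalytic subunit of calcineurin, had the highest difference of the 22, 0.97 ± 0.67 (limma, adjusted p = 0.573), with 0 and 8 reads in controls and 8 and 13 with TGF-beta1. That value rests on the control library at 0 reads: it was 0.02 without control replicate 1 and 1.85 without control replicate 2. PPP5C had 0, 2, 5 and 0 reads.

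Among regulatory subunits PPP1R15B, which directs PP1 to the translation factor eIF2alpha, had the most sites of any member (14) and ranked 142 among all genes. It stood at 17.1 and 27.4 scaled RPM in controls and 24.1 and 24.8 with TGF-beta1, with the treated libraries between the controls (0.17 ± 0.28; limma, adjusted p = 0.84). Its miR-22-3p site, with 10, 30, 35 and 35 reads, held 39.9% of its reads. PPP1R18 (phostensin, which binds actin) stood at 8.85 and 7.12 against 5.96 and 12, and 96.9% of its reads lay at the miR-200b site. PPP2R2A, a PP2A subunit, stood at 5.53 and 9.37 against 6.81 and 8.54, with most reads at a coding site for miR-181. PPP4R3A, a PP4 subunit, stood at 4.98 and 3.37 against 7.09 and 5.69, without overlap (0.53 ± 0.40; limma, adjusted p = 0.596), and 6 of its 8 sites were in coding sequence. The intron site of PPP4R2, another PP4 subunit, had 13, 8, 16 and 18 reads.

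The other members were faint and are given by their reads in the order control 1 and 2, TGF-beta1 1 and 2. These reads are not scaled, and the TGF-beta1 libraries are deeper. PPP1R3B, which targets PP1 to glycogen, had 8, 11, 3 and 16, so its treated libraries were the lowest and the highest. PPP2R3A, a PP2A subunit, had 2, 6, 10 and 19, or 1.11 and 2.25 scaled RPM against 2.84 and 5.41, without overlap. PPP1R11, an inhibitor of PP1, had 7, 8, 4 and 9, or 3.87 and 3 scaled RPM against 1.13 and 2.56, without overlap. PPP3R1, the regulatory subunit of calcineurin, had 3, 2, 7 and 6. PPP6R3, a PP6 subunit with an adjacent let-7 match in coding sequence, had 6, 2, 5 and 2, and PPP4R3B had 6, 2, 0 and 1. MAP3K3, with its adjacent miR-17 match, had 6, 7, 5 and 6 reads, or 3.32 and 2.62 scaled RPM against 1.42 and 1.71, without overlap. MAP3K2 had 0, 4, 6 and 10 and MAP3K13 had 4, 0, 1 and 2. PPP1R12A, the myosin phosphatase targeting subunit, had 2, 5, 0 and 1, and PPP2R5A had 1, 4, 2 and 0. The remaining 7 genes (MAP3K20, PPP1R2, PPP2R1A, PPP2R2D, PPP4R1, PPP4R1L and PPP6R2) had 2 to 5 reads over the 4 libraries. None of these genes was called, and only PPP1R3B and PPP1R11 passed the read filter.

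**Figure D5:**
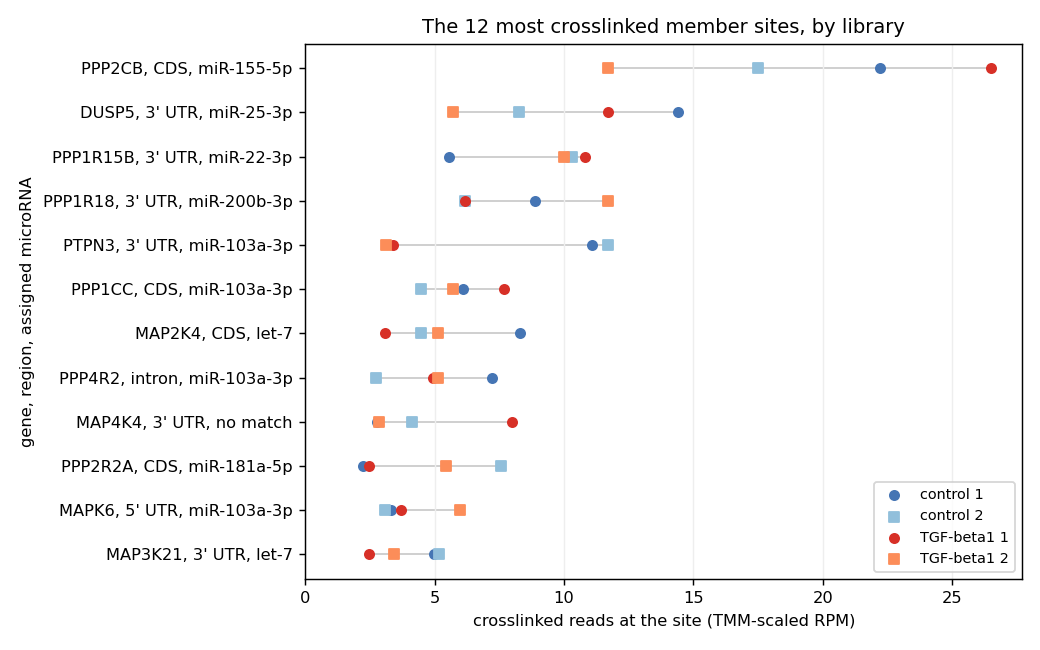
Crosslinked reads (x axis, TMM-scaled RPM) at the 12 member sites with the highest means (y axis: gene, region and the first microRNA of the authors' match), 1 point per library and a line from lowest to highest. At the PTPN3 site both TGF-beta1 libraries (3.39 and 3.14) lie far below both controls (11.1 and 11.7); at most other sites the groups overlap.

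Other genes of the same pathways gave no call by this test, against which stand the 3.08% of all tested genes that were called and the 13.8% with an unadjusted p under 0.05 in either direction. Of 7 tested genes of Ras and Raf signalling upstream of the MAP kinases, 0 were called, with 2 at an unadjusted p under 0.05. Of 2 tested brakes on Ras signalling 0 were called, with 1 at an unadjusted p under 0.05. Of 7 tested kinases and transcription factors downstream, 0 were called, with 3 at an unadjusted p under 0.05. Of 2 tested stress kinase adaptors and of 9 tested phosphatases outside the families above, 0 were called, and 0 had an unadjusted p under 0.05.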

How the data were processed

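PAR-CLIP reads were aligned with STAR 2.7.1a to hg38 and handled with bedtools, per the submitters' processing notes, and annotated with GENCODE release 27, per the file headers. The program that called crosslinks is not given in the sources used here. The deposited table gives, per the file headers, crosslinked and covering reads per site in RPM of the library, and a score for each seed, which the authors took from microRNA reads. All RPM values were whole multiples of 1 read (100% within 0.1 reads), so reads and depths were recovered. The table's other 4 columns of per-sample values, which name no sample of this series, were not used.

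Crosslinked reads were used per site and summed per gene name, scaled with edgeR 4.0.16 (TMM), kept by filterByExpr (minimum count 10), and compared with limma 3.58.1 (R 4.3.3, pseudocount 1 RPM, variance trend). Site and gene levels have separate TMM factors. Because the values are RPM, edgeR's and DESeq2 1.42.0's tests on recovered reads were alternatives. The fit was also run on simulated reads with large changes, which does not show how it handles differences as small as most of those above. Reads without molecular identifiers are not independent molecules, and no interval covers that.

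A member gene is named if it or one of its sites was called, if it is among the 3 most crosslinked of its role group, or among the 3 highest or lowest differences; sites are named if called, among the 12 most crosslinked, or the top site of a named gene. Other members and sites named here were chosen after their values were seen. The members, role groups and pathway lists, and the variance trend, were chosen with earlier results of these data known. Same-numbered libraries deviated together only weakly (correlation 0.131 over genes and 0.117 over sites, with 2 pairs), and the reported fit treats the libraries as unpaired. Alternatives were another scaling, pseudocount, filter, test or read type, 3′ UTR sites only, joined names left out, a replicate block, and leaving out each library. The other read type was covering reads, taken only at sites crosslinked in all 4 libraries, so the set of sites changed with it. The values of 1 member gene are not reported here.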

Additional observations from a re-analysis of the deposited data

How the results depend on the processing

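Of the member genes, 0 were called as reported, and 1, always PTPN3, was called lower with RPM without TMM factors (adjusted p = 0.0269), edgeR on recovered reads (0.0408), 3′ UTR sites only (0.00574), joined gene names left out (0.0496) and covering reads (0.0409); with DESeq2 its adjusted p was 0.115, without the variance trend 0.0973 and with no filter 0.434. Of the member sites, 1 was called as reported, 0 with no filter, 0 without the variance trend and 0 with DESeq2, where the PTPN3 site had adjusted p values of 0.247, 0.0668 and 0.0528, and 2 with edgeR, the second being the let-7 site of MAP3K9. With replicate number as a block (replicate block) 1 gene and 2 sites were called, namely PTPN3 (adjusted p = 0.0492), its site and the MAP3K9 site; the numbers were not taken to mark pairs. Over the whole table, 39 genes were called as reported, 29 without TMM factors, 48 with edgeR, 38 with DESeq2 and 57 with the block. Without the variance trend 3 genes were called, and with no filter 3 of 4361. Called genes were 70 of 788 with 3′ UTR sites only, 44 with joined names left out and 84 of 1756 with covering reads at sites crosslinked in all 4 libraries. Of all sites, 76 were called as reported, 82 with edgeR, 47 with DESeq2, 117 with the block, 25 without the trend and 0 with no filter. Leaving out each library in turn, with 1 then left in its group, moved the PPP2CB difference between -0.42 and 0.17. The PPP1R15B difference moved between -0.10 and 0.48. Among the uncalled differences printed above, sign changes elsewhere were PPP2CB (0.03) and MAPK6 (-0.04) with covering reads, and PPP1R15B (-0.36), PPP1CC (-0.08) and MAP4K4 (-0.10) without TMM factors. The cause was not tested. RPM without TMM factors moved the median of all genes from 0.02 to -0.45, and that of the members from 0.05 to -0.41, with positive differences in 4 in place of 12 member genes and in 0 in place of 8 member sites. Over the 41 tested genes and sites, 51 of 554 alternative estimates changed sign, none of them for PTPN3, MAP3K9 or MAP3K21 or their tested sites. No member was called higher in any of these settings. With no filter, 16 of the 180 member sites were higher at an unadjusted p under 0.05 (limma) and 4 were lower. Over the 180 sites differences were positive in 109 and negative in 71, with a median of 0.12 against 0.13 over all sites. For the 59 genes, 1 was higher and 4 were lower at that unadjusted p (limma). The shares over all sites and genes in that setting were not counted. Depth limits what could be tested: with a median of 8 reads a site, 161 of 180 member sites did not pass the read filter. Reads of the deeper TGF-beta1 libraries count for less in it. The let-7 site of MAPK6, with 36 reads, did not pass, while that of MAP3K9, with 23, did.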
